A study of Mus musculus with 9 samples.

Results

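Potassium channel genes were described in RNA-seq of mouse hearts. Members were all genes in the files whose mouse symbol starts with Kcn. There were 88 of them among 16873 genes, and 32 had a mean of at least 1 FPKM over the 9 libraries (fragments per kilobase of a transcript and per unit of mapped fragments). The other 56 were below that level. The Kcn symbols cover voltage-gated (Kv) pore subunits, silent Kv subunits, auxiliary subunits, inward rectifiers (Kir), leak channels with tandem pores (K2P) and channels opened by calcium or sodium.

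The groups were hearts of Sting-/- mice given doxorubicin (Sting-/- DOX), hearts of wild-type mice given doxorubicin (WT DOX) and hearts of wild-type mice given saline (saline), with 3 libraries each. Doxorubicin, a chemotherapy agent of the anthracycline class, is toxic to heart muscle, and the series studied its chronic low-dose toxicity in mice lacking parts of the cGAS-STING pathway, which senses cytosolic DNA. All groups were labelled as heart. The labels used here give no age, sex, dose, time or part of the heart, and do not state whether each library is another animal. The p-values therefore describe the spread among these libraries, and that spread may be technical. Untreated Sting-/- hearts were not analysed here, so any effect that loss of Sting has without doxorubicin enters each comparison with that group. Sting1, the targeted gene, was at 0.06, 0 and 0 FPKM in the Sting-/- DOX libraries, at 17.5, 17.96 and 17.8 FPKM in the WT DOX libraries and at 5.1, 5.43 and 5.93 FPKM in the saline libraries. Depth was not given, and the steps of low values gave rough estimates, counted in 1000000 fragments, of 8.6 to 8.9 in Sting-/- DOX, 13.8 to 14.2 in WT DOX and 11.9 to 12.3 in saline libraries. At that depth 1 fragment on a transcript of 2 kb is worth 0.0351 to 0.0581 FPKM.

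Potassium channels let potassium leave the cell and so repolarise the cardiac action potential and hold the resting potential. In mouse ventricle the early repolarisation is carried by fast transient outward channels and by sustained Kv channels, the resting potential by inward rectifiers, and smaller currents respond to acetylcholine, ATP, acid, stretch or calcium. Pore subunits need auxiliary subunits for surface expression and gating, and the same gene family also has members in vessels, fibroblasts and immune cells.

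In bulk tissue, fewer cells of a type and less RNA per cell cannot be told apart. The 16 cardiomyocyte markers summed to 12890 to 13490 FPKM in the Sting-/- DOX libraries, 59730 to 63600 FPKM in the WT DOX libraries and 89860 to 91080 FPKM in the saline libraries, with none at 0. All 16 were lower in Sting-/- DOX than in WT DOX (median log2 fold change -2.44), and 14 of 16 were lower and 1 higher in WT DOX against saline (median -0.58). Over all 12485 genes tested, 29.7% were lower in the first of these comparisons and 21.5% in the second. Fibroblast marker sums were highest in Sting-/- DOX and lowest in saline libraries, and endothelial marker sums were highest in Sting-/- DOX and lowest in WT DOX libraries. In Sting-/- DOX, WT DOX and saline libraries, fibroblast markers summed to 7983 to 8434, 1417 to 1458 and 977 to 1004 FPKM, and endothelial markers to 6131 to 6548, 1228 to 1364 and 1420 to 1532 FPKM. The part of these shifts in the results on potassium channel genes was not tested.

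The summed level of the 88 genes was 210.1 ± 2.37 FPKM in Sting-/- DOX hearts, 383.4 ± 6.87 FPKM in WT DOX hearts and 517.6 ± 9.61 FPKM in saline hearts (SD, n = 3 each). The library sums did not overlap between any of the groups. More members were at or above a group mean of 1 FPKM in Sting-/- DOX hearts (36) than in WT DOX (31) or saline hearts (27). Many genes outside the family were higher in Sting-/- DOX as well, 54.1% of all genes tested against WT DOX and 63.0% against saline. The same count at 1 FPKM was not made over all genes, so it is no result about the family. The inward rectifiers summed to 46.5 ± 2.38 FPKM in Sting-/- DOX, 105.8 ± 2.07 FPKM in WT DOX and 148.4 ± 4.33 FPKM in saline hearts, and the K2P genes to 22.5 ± 0.743, 73.0 ± 4.2 and 91.0 ± 1.67 FPKM in the same order of groups. Auxiliary subunits summed to 52.2 ± 0.758 FPKM in Sting-/- DOX, 73.1 ± 1.26 FPKM in WT DOX and 127.1 ± 2.43 FPKM in saline hearts. Kv pore subunits differed less in sum, at 63.8 ± 4.0, 77.3 ± 1.03 and 92.4 ± 2.52 FPKM in the same order. Kcna5 alone averaged 24.5, 4.68 and 6.91 FPKM of these sums, so the smaller difference does not hold for the Kv pore genes one by one. The calcium- or sodium-activated genes summed to 13.8 ± 1.94 FPKM in Sting-/- DOX, 12.7 ± 0.483 FPKM in WT DOX and 15.8 ± 0.807 FPKM in saline hearts, and the Sting-/- DOX libraries overlapped those of both other groups.

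**Figure D1:**
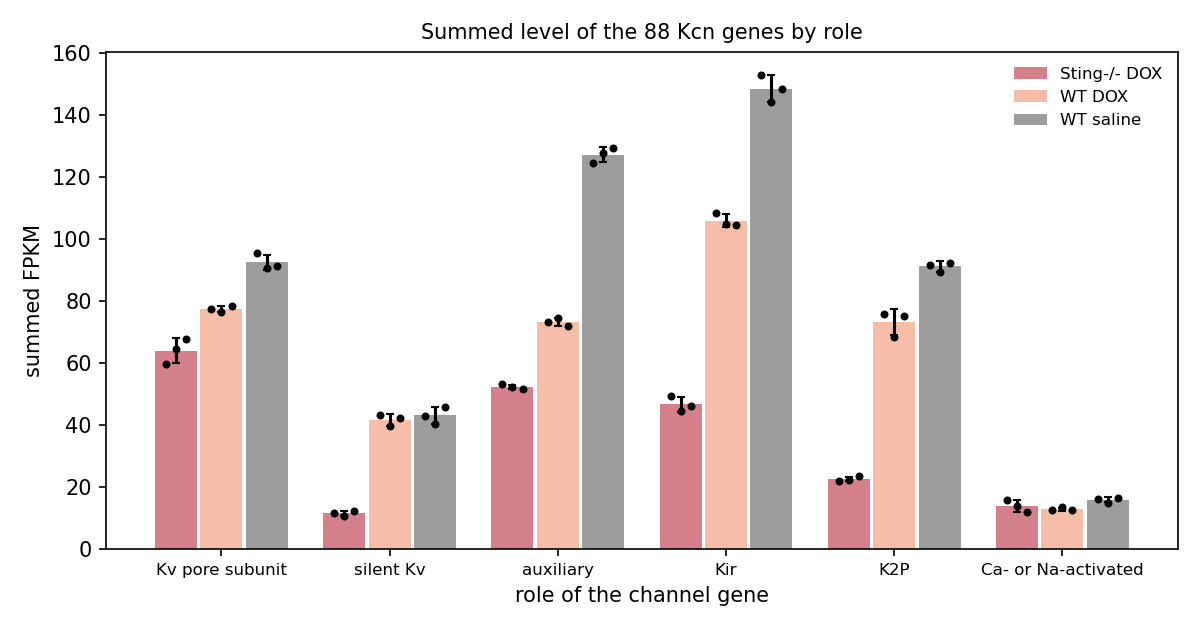
Summed FPKM of the 88 Kcn genes by role in Sting-/- DOX, WT DOX and WT saline hearts. Bars are means of 3 libraries, error bars are SD and points are libraries; the inward rectifiers summed to 46.5 FPKM in Sting-/- DOX, 106 FPKM in WT DOX and 148 FPKM in saline hearts.

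The order of the genes within the family also differed. In Sting-/- DOX hearts Kcnip2 held 12.1% ± 1.01 of the summed Kcn level and Kcna5 11.7% ± 0.847, followed by Kcnj15 (9.22% ± 0.499) and Kcnj8 (5.77% ± 0.46). Kcnip2 was above Kcna5 by a small margin in each of these libraries (22.97 against 22.81, 26.19 against 24.27 and 26.86 against 26.55 FPKM). In WT DOX hearts Kcnk3 was first with 17.4% ± 0.921, ahead of Kcnip2 with 13.1% ± 0.121, Kcnj11 with 11.5% ± 0.682 and Kcng2 with 10.5% ± 0.334. In saline hearts Kcnip2 held 22.5% ± 0.705, followed by Kcnk3 (16.9% ± 0.0765), Kcnj11 (11.8% ± 0.178) and Kcng2 (7.56% ± 0.456) (SD, n = 3 each). Kcnj11 was not among the 8 highest members in Sting-/- DOX hearts, and neither Kcna5 nor Kcnj15 was among the 8 highest in the WT groups.

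**Figure D2:**
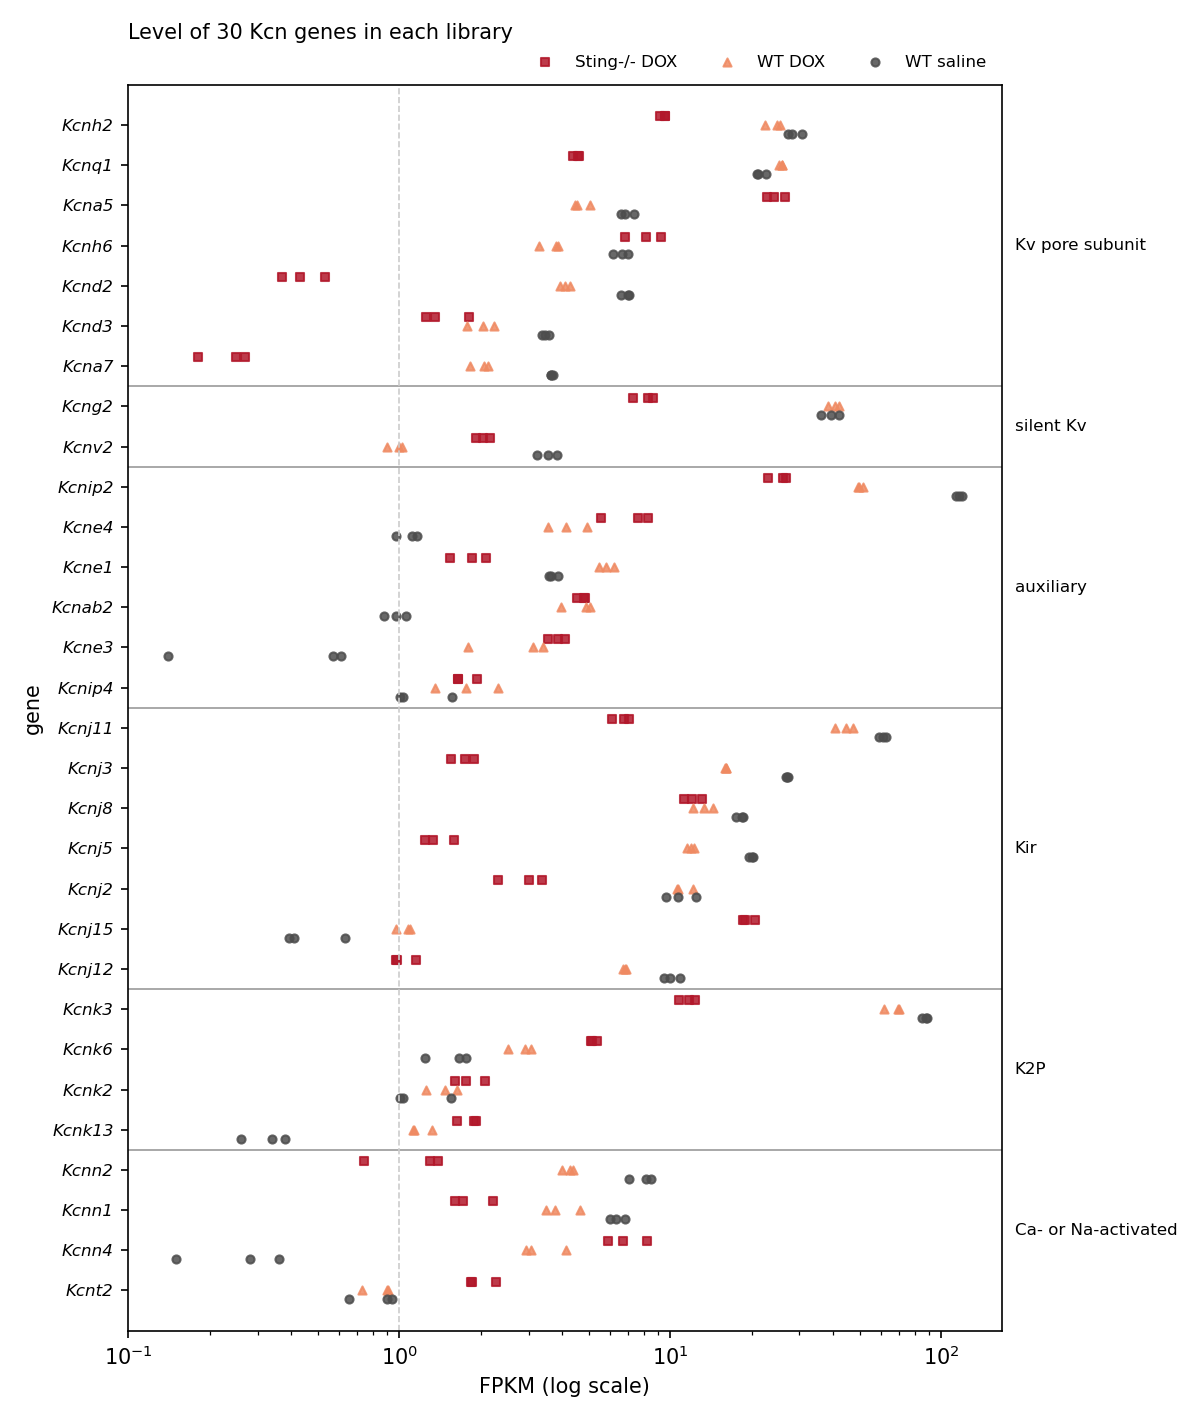
FPKM of 30 of the 32 described Kcn genes in each of the 9 libraries on a log axis, by role; each point is a library and the dashed line marks 1 FPKM. The 3 Sting-/- DOX libraries of Kcnj15 lie at 18.6 to 20.6 FPKM against 0.97 to 1.1 FPKM in WT DOX libraries, and those of Kcnj11 at 6.1 to 7.06 FPKM against 40.7 to 47.5 FPKM.

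WT DOX against saline asks how wild-type hearts differed after doxorubicin. Most cardiac Kv and Kir pore genes fell, led by the silent subunit Kcnv2 and the auxiliary subunit Kcnip2, while the auxiliary subunits Kcne1, Kcne3, Kcne4 and Kcnab2 and the calcium-activated channel Kcnn4 rose. Of the 32 members, 10 rose and 18 fell in WT DOX hearts relative to saline (limma on log2(FPKM + 1), adjusted p at most 0.05). Over all 12485 genes tested, 45.3% were higher and 21.5% lower. The median log2 fold change was -0.40 over the members and 0.13 over all genes tested. By role, 8 of 9 Kv pore genes were lower and 1 higher, 5 of 7 Kir genes lower and 1 higher, and 5 of 6 auxiliary genes higher and 1 lower. Falls were mostly modest: of the lower members only Kcnip2 and Kcnv2 fell by 2-fold or more in mean FPKM, whereas Kcnj15, Kcne4, Kcnn4, Kcnab2, Kcne3 and Kcnk13 were higher by 2-fold or more.

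Sting-/- DOX against WT DOX asks how doxorubicin-treated hearts differed without Sting. Most inward rectifier genes fell, as did the leak channel Kcnk3, the delayed rectifier Kcnq1 and the silent subunit Kcng2, whereas the Kv gene Kcna5 and the inward rectifier Kcnj15 rose to among the highest members. In Sting-/- DOX against WT DOX 10 members were higher and 16 lower, where 54.1% of all genes tested were higher and 29.7% lower. The median log2 fold change was -0.21 over the members and 0.25 over all genes. Of the 16 lower members 14 fell by 2-fold or more in mean FPKM, and 7 of the 10 higher members were higher by 2-fold or more. By role, 5 of 7 Kir genes were lower and 1 higher, 5 of 9 Kv pore genes lower and 3 higher, and 2 of 6 auxiliary genes lower and 1 higher.

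Sting-/- DOX against saline hearts spans drug and genotype together. The limma test called 13 members higher and 19 lower, where 63.0% of all genes tested were higher and 25.9% lower, and the median was -0.71 over the members and 0.49 over all genes. The 3 comparisons share their groups, so their calls are not separate evidence, and each comparison's values stand side by side below. Of the 32 members 9 had a group mean under 1 FPKM (Kcnj15, Kcnd2, Kcnn4, Kcnab2, Kcne3, Kcnv2, Kcna7, Kcnt2 and Kcnk13) and passed the filter through the groups where they are high, so the counts over the 32 are no support of a difference. Without the filter 15 of 88 were higher and 21 lower in WT DOX against saline (all genes 35.4% and 16.5%), 30 and 22 in Sting-/- DOX against WT DOX (47.8% and 23.6%), and 34 and 24 in Sting-/- DOX against saline (55.6% and 20.8%). Among these 88 members 56 averaged under 1 FPKM, whereas 12485 of all 16873 genes averaged 1 FPKM or more, so these shares are not at a like level.

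FPKM values are relative, and other scalings shift all genes. With median-ratio scaling the median of all genes was -0.09, -0.05 and -0.02 in WT DOX against saline, Sting-/- DOX against WT DOX and Sting-/- DOX against saline, in place of 0.13, 0.25 and 0.49. Under median-ratio scaling and under quantile normalization, the share of higher genes among all calls was 41.2% and 39.2% in place of 67.8% in WT DOX against saline, 46.7% and 51.4% in place of 64.6% in Sting-/- DOX against WT DOX, and 49.0% and 51.3% in place of 70.9% in Sting-/- DOX against saline. Of the members called in Sting-/- DOX against saline, 31.0% and 26.7% were higher under these scalings, in place of 40.6%. Under FPKM, TPM, median-ratio and quantile scaling the median of the members lay below that of all genes by 0.47 to 0.56 in WT DOX against saline, by 0.41 to 0.51 in Sting-/- DOX against WT DOX and by 1.15 to 1.32 in Sting-/- DOX against saline. Exons of 10 described members overlap a gene on the opposite strand (Kcnd3, Kcng2, Kcnip4, Kcnj3, Kcnj15, Kcnk2, Kcnn1, Kcnn2, Kcnt2 and Kcnq1, the last with Kcnq1ot1). Whether the counting used strand is not given in the sources used here, so reads of both cannot be told apart.

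**Figure D3:**
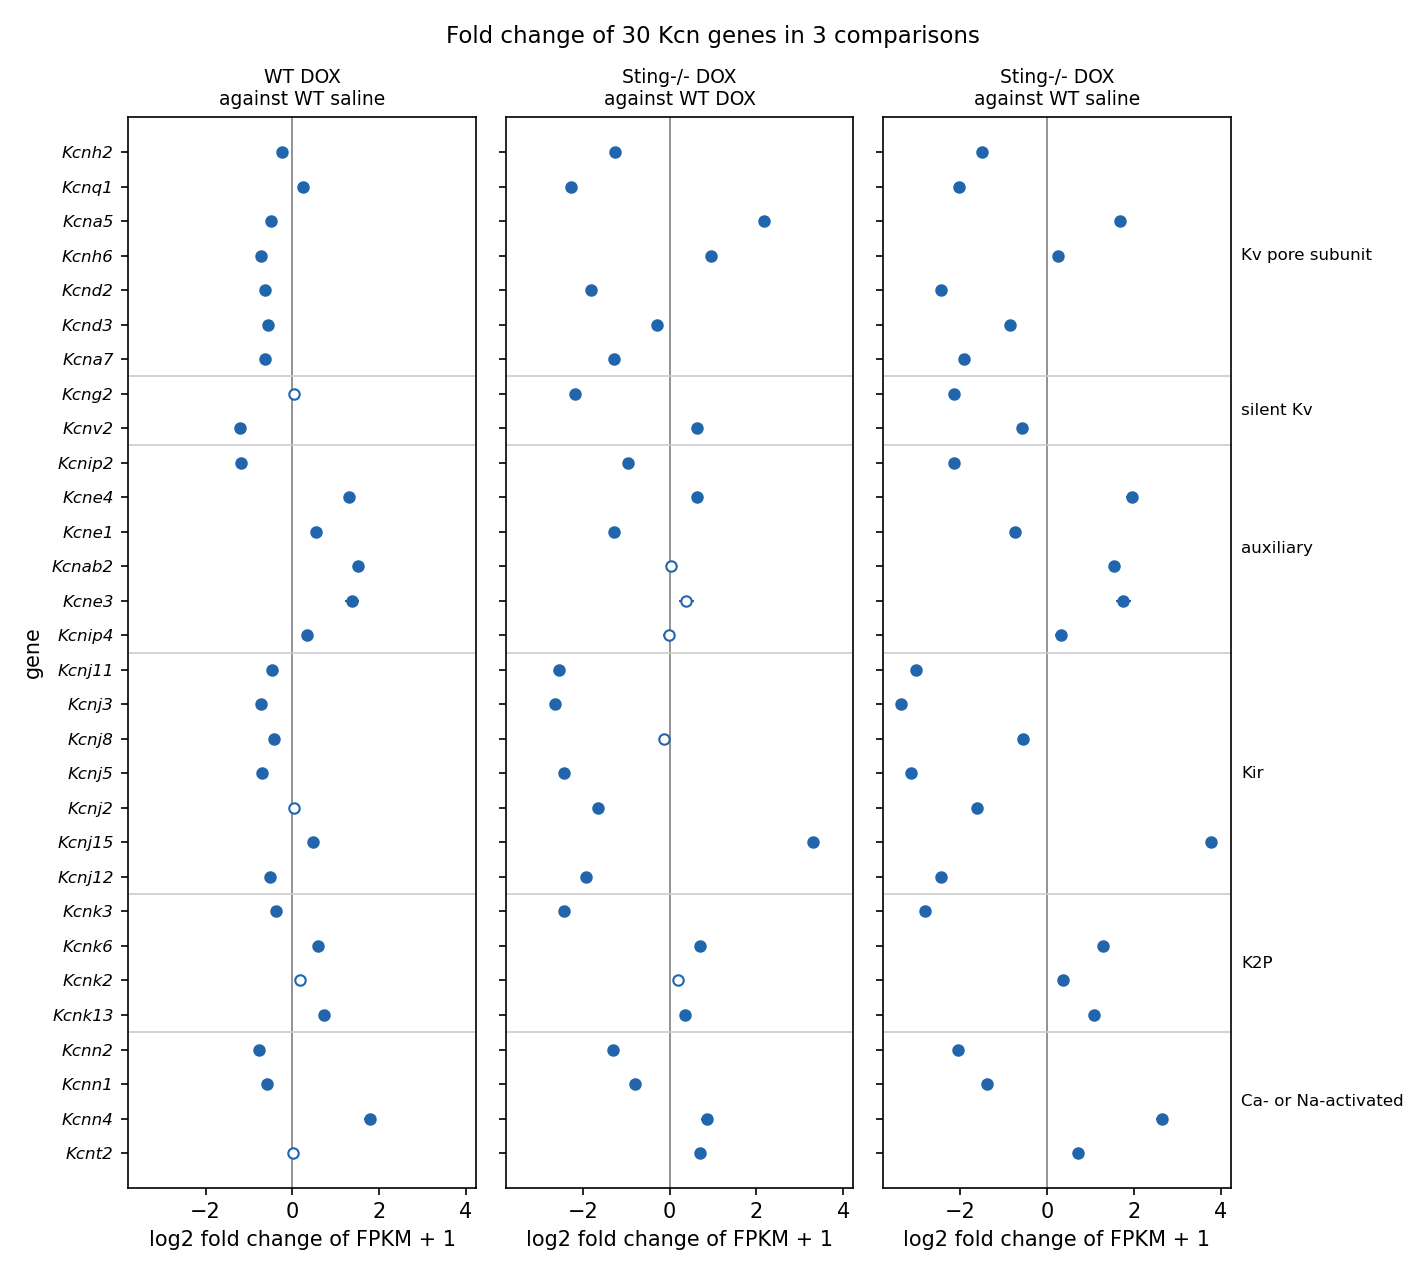
Log2 fold change of FPKM + 1 of 30 of the 32 described Kcn genes in WT DOX against saline, Sting-/- DOX against WT DOX and Sting-/- DOX against saline. Points are limma estimates, bars are SE (mostly hidden by the points) and filled points have an adjusted p of at most 0.05; Kcnj15 lies at 3.31 and Kcnj3 at -2.65 in Sting-/- DOX against WT DOX.

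The fast transient outward channel is built from the pore subunits Kcnd2 and Kcnd3 with the calcium-binding auxiliary subunit Kcnip2, which carries them to the cell surface. The RefSeq promoters of Kcnip2 (GRCm38.p6 chr19:45816014-45816313, minus strand) and Kcnd2 (chr6:21215096-21215395, plus strand) are shown because both genes fell in each comparison. They run from 250 bases before to 50 after the gene start, and capitals mark CCACCC, the core of the site of KLF factors, on either strand.
Kcnip2: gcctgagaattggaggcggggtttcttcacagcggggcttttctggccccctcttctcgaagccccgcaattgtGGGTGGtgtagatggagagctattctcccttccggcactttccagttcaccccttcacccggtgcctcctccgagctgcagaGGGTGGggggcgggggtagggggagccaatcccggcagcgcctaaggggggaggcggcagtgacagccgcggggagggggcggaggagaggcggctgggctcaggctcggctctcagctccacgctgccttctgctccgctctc
Kcnd2: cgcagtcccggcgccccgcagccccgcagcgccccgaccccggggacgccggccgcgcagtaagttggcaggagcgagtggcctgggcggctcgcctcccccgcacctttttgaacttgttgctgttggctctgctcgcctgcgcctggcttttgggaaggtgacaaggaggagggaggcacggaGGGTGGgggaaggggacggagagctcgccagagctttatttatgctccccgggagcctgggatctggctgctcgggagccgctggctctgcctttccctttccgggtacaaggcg
CCACCC occurs in 31.5% of all 32851 RefSeq promoters of this length and in 18 of the 30 promoters of the 22 described members with an entry. CACGTG, the E-box, was searched as well, occurs in 7.2% of all promoters and was found in Kcne4, Kcnj2 and Kcnn4. A match is a description of the letters and not a binding site.

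Kcnip2 (gene ID 80906) was at 22.97, 26.2 and 26.9 FPKM in the Sting-/- DOX libraries, 51.6, 49.5 and 49.9 FPKM in the WT DOX libraries and 113, 116 and 119 FPKM in the saline libraries. Saline libraries were highest and Sting-/- DOX libraries lowest, without overlap. Its log2 fold change was -0.97 (SE 0.055, limma adjusted p = 5.97e-09) in Sting-/- DOX against WT DOX and -1.19 (SE 0.055, limma adjusted p = 2.72e-09) in WT DOX against saline. Kcnd2 (gene ID 16508) was at 0.43, 0.53 and 0.37 FPKM in the Sting-/- DOX libraries, 4.26, 4.1 and 3.93 FPKM in the WT DOX libraries and 7.05, 6.59 and 6.98 FPKM in the saline libraries. All Sting-/- DOX libraries were well below every WT library. The fold change of Kcnd2 was -1.82 (SE 0.072, limma adjusted p = 2.2e-10) in Sting-/- DOX against WT DOX and -0.63 (SE 0.072, limma adjusted p = 9.63e-06) in WT DOX against saline, and with a pseudocount of 0.1, which understates low genes less, -2.96 in the first of these. Kcnd3 (gene ID 56543) had 1.36, 1.26 and 1.81 FPKM in the Sting-/- DOX libraries, 2.04, 2.24 and 1.78 FPKM in the WT DOX libraries and 3.56, 3.44 and 3.36 FPKM in the saline libraries. The libraries of both doxorubicin groups overlapped and lay below the saline libraries. Kcnd3 changed by -0.29 (SE 0.096, limma adjusted p = 0.0144) in Sting-/- DOX against WT DOX and -0.56 (SE 0.096, limma adjusted p = 0.00026) in WT DOX against saline, and the call between the doxorubicin groups was lost without WT DOX replicate 2 (-0.24, limma adjusted p = 0.0591) or without Sting-/- DOX replicate 2 (-0.23, limma adjusted p = 0.0588). That difference was -0.62 with quantile normalization and -0.48 with median-ratio scaling.

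Between the Sting-/- DOX and the WT libraries the balance of the subunits moved with Kcnd2. The Kcnd2/Kcnd3 ratio was 0.316, 0.421 and 0.204 in the Sting-/- DOX libraries, 2.09, 1.83 and 2.21 in the WT DOX libraries and 1.98, 1.92 and 2.08 in the saline libraries, so Kcnd3 was the higher pore subunit in the Sting-/- DOX libraries and the lower in every WT library. The Kcnip2/Kcnd2 ratio was 53.4, 49.4 and 72.6 in the Sting-/- DOX libraries, 12.1, 12.1 and 12.7 in the WT DOX libraries and 16.1, 17.6 and 17.1 in the saline libraries. The log2 difference between Sting-/- DOX and WT DOX was 2.23 for Kcnip2/Kcnd2 and -2.76 for Kcnd2/Kcnd3, and with a pseudocount of 1 on both members of a ratio, which weighs on low Kcnd2 values, 0.855 and -1.53. Both ratios separated Sting-/- DOX from WT DOX libraries without overlap, at the smallest p an exact two-sided permutation test of 3 against 3 can give (0.1). In WT DOX against saline the Kcnip2/Kcnd2 ratio was 0.727-fold (exact permutation p = 0.1) and the Kcnd2/Kcnd3 ratio 1.02-fold (exact permutation p = 0.7).

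Transcription factors known in mouse heart to act on these genes were measured beside them. Klf15, a factor known to drive Kcnip2 in mouse, was at 1.65, 2.33 and 1.97 FPKM in the Sting-/- DOX libraries, 12.2, 11.1 and 12.5 FPKM in the WT DOX libraries and 25.1, 21.04 and 23.7 FPKM in the saline libraries. Its libraries were ordered like those of Kcnip2, with saline highest, WT DOX between and Sting-/- DOX lowest. The cardiomyocyte marker sums given above had the same order, and the part of Klf15 in the level of Kcnip2 was not tested. The fold change of Klf15 was -2.12 (SE 0.089, limma adjusted p = 3.85e-10) in Sting-/- DOX against WT DOX and -0.91 (SE 0.089, limma adjusted p = 2.57e-06) in WT DOX against saline. Irx5, known as a repressor of Kcnd2 in mouse ventricle, was at 2.14, 2.52 and 2.25 FPKM in the Sting-/- DOX libraries, 5.76, 7.13 and 7.05 FPKM in the WT DOX libraries and 5.48, 4.71 and 4.97 FPKM in the saline libraries. Irx5 and Kcnd2 were both lowest in the Sting-/- DOX libraries, and Irx5 changed by -1.21 (SE 0.087, limma adjusted p = 6.25e-08) against WT DOX. In WT DOX against saline Irx5 was higher (0.33, SE 0.087, limma adjusted p = 0.00503) and Kcnd2 lower (-0.63). The part of Irx5 in the level of Kcnd2 was not tested. Of the 10 factors in the list, 8 were lower and 2 higher in Sting-/- DOX than in WT DOX (median -1.28), and 3 lower and 5 higher in WT DOX than in saline (median 0.13). Over all genes tested, 29.7% were lower and 54.1% higher in the first comparison. In the second these were 21.5% and 45.3%, so the 5 higher of 10 were near the share of all genes. Mef2c (0.28) and Nfatc3 (0.38) were the 2 higher in Sting-/- DOX.

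Kcna5 is the pore of the ultrarapid delayed rectifier, a sustained Kv current of mouse ventricle. The Kcna5 promoter (RefSeq, GRCm38.p6 chr6:126535506-126535805, minus strand) is shown because Kcna5 had the largest rise of the described Kv genes in Sting-/- DOX against WT DOX, with CCACCC in capitals.
Kcna5: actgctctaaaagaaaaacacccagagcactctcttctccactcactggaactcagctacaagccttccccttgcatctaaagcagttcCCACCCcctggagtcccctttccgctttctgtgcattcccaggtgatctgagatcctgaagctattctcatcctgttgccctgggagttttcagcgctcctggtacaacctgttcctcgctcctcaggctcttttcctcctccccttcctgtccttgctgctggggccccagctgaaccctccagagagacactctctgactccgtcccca
Kcna5 (gene ID 16493) was at 22.8, 24.3 and 26.6 FPKM in the Sting-/- DOX libraries, 4.53, 4.44 and 5.06 FPKM in the WT DOX libraries and 6.8, 7.36 and 6.57 FPKM in the saline libraries. WT DOX libraries were below the saline libraries, and Sting-/- DOX libraries were above both without overlap. The fold change was 2.17 (SE 0.07, limma adjusted p = 3.54e-11) in Sting-/- DOX against WT DOX and -0.48 (SE 0.07, limma adjusted p = 7.49e-05) in WT DOX against saline, and against saline 1.69 (SE 0.07, limma adjusted p = 1.96e-10). Mean Kcna5 FPKM in Sting-/- DOX was 5.25-fold that of WT DOX and 3.55-fold that of saline. In the Sting-/- DOX libraries cardiomyocyte marker sums were lowest, and those of fibroblasts, endothelium and smooth muscle highest. The part of these markers in the level of Kcna5 was not tested.

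Silent subunits form no channel alone and modify other Kv pore subunits when they join them. Kcng2 averaged 8.06 ± 0.694 FPKM in Sting-/- DOX, 40.3 ± 2.0 FPKM in WT DOX and 39.1 ± 2.98 FPKM in saline hearts (SD, n = 3 each). Its WT DOX and saline libraries overlapped and its Sting-/- DOX libraries were far lower. The change was -2.19 (SE 0.07, limma adjusted p = 3.14e-11) in Sting-/- DOX against WT DOX and 0.04 (SE 0.07, limma adjusted p = 0.614) in WT DOX against saline, and with median-ratio scaling it was -0.20 in WT DOX against saline (limma adjusted p = 0.0216). Kcnv2 (gene ID 240595), the other silent subunit above 1 FPKM, was at 1.92, 2.17 and 2.03 FPKM in the Sting-/- DOX libraries, 0.90, 1.0 and 1.02 FPKM in the WT DOX libraries and 3.22, 3.82 and 3.53 FPKM in the saline libraries. It was lowest in the WT DOX libraries, and the Sting-/- DOX libraries lay between these and the saline libraries. Kcnv2 changed by 0.62 (SE 0.08, limma adjusted p = 1.35e-05) in Sting-/- DOX against WT DOX and -1.20 (SE 0.08, limma adjusted p = 8.51e-08) in WT DOX against saline. The rise in Sting-/- DOX was 0.40 with median-ratio scaling, 0.32 with quantile normalization and 0.996 with a pseudocount of 0.1.

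The remaining Kv members were Kcna7, Kcnab2 and Kcnip4. Kcna7, a Kv pore subunit known from heart and skeletal muscle, averaged 0.23 ± 0.0473 FPKM in Sting-/- DOX, 2.0 ± 0.153 FPKM in WT DOX and 3.65 ± 0.0321 FPKM in saline hearts (SD, n = 3 each). Each group was separate, and the Sting-/- DOX libraries were all under 0.3 FPKM. Kcna7 changed by -1.28 (SE 0.079, limma adjusted p = 1.35e-08) in Sting-/- DOX against WT DOX and -0.63 (SE 0.079, limma adjusted p = 1.98e-05) in WT DOX against saline, and by -2.67 in the first of these with a pseudocount of 0.1. Kcnab2 (gene ID 16498), a cytosolic beta subunit of Kv channels, was at 4.85, 4.79 and 4.54 FPKM in the Sting-/- DOX libraries, 5.04, 4.91 and 3.97 FPKM in the WT DOX libraries and 0.88, 0.97 and 1.06 FPKM in the saline libraries. Every doxorubicin library was above every saline library, and the doxorubicin groups overlapped. Kcnab2 changed by 0.03 (SE 0.086, limma adjusted p = 0.777) in Sting-/- DOX against WT DOX and 1.51 (SE 0.086, limma adjusted p = 1.82e-08) in WT DOX against saline. Between the doxorubicin groups it was -0.25 under median-ratio scaling and -0.27 under quantile normalization (limma adjusted p = 0.018 and 0.0123). Kcnip4, a relative of Kcnip2, averaged 1.75 ± 0.167 FPKM in Sting-/- DOX, 1.81 ± 0.476 FPKM in WT DOX and 1.2 ± 0.318 FPKM in saline hearts (SD, n = 3 each), with overlapping WT DOX and saline libraries. Its change in WT DOX against saline was 0.35 (SE 0.133, limma adjusted p = 0.0366) and this call was lost without the filter and with median-ratio scaling (0.21) or quantile normalization (0.04), with only the 2 groups in the fit, or without any of 4 libraries. These were saline replicates 1 (0.29) and 3 (0.29) and WT DOX replicates 2 (0.22) and 3 (0.35). With quantile normalization it was lower in Sting-/- DOX than in WT DOX (-0.35, limma adjusted p = 0.0243).

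The delayed rectifiers end the action potential in larger mammals. Kcnq1 is the pore of the slow component with Kcne1 as its auxiliary subunit, and Kcnh2 is the pore of the rapid component. Kcnq1 (gene ID 16535) was at 4.36, 4.55 and 4.62 FPKM in the Sting-/- DOX libraries, 25.8, 25.98 and 25.3 FPKM in the WT DOX libraries and 22.6, 20.97 and 21.1 FPKM in the saline libraries. It was slightly higher in WT DOX than in saline libraries and far lower in the Sting-/- DOX libraries. The fold change was -2.28 (SE 0.048, limma adjusted p = 9.68e-13) in Sting-/- DOX against WT DOX and 0.24 (SE 0.048, limma adjusted p = 0.0008) in WT DOX against saline, and the rise over saline was not called with median-ratio scaling (0.001) or quantile normalization (0.06). Kcne1 (gene ID 16509) was at 2.09, 1.54 and 1.86 FPKM in the Sting-/- DOX libraries, 6.2, 5.81 and 5.47 FPKM in the WT DOX libraries and 3.87, 3.62 and 3.58 FPKM in the saline libraries. The WT DOX libraries were highest and the Sting-/- DOX libraries lowest, without overlap. Kcne1 changed by -1.27 (SE 0.083, limma adjusted p = 2.31e-08) in Sting-/- DOX against WT DOX and 0.54 (SE 0.083, limma adjusted p = 0.000111) in WT DOX against saline, the rise over saline being 0.34 under median-ratio scaling and 0.28 under quantile normalization. The Kcne1/Kcnq1 ratio was 0.479, 0.338 and 0.403 in the Sting-/- DOX libraries, 0.24, 0.224 and 0.216 in the WT DOX libraries and 0.172, 0.173 and 0.169 in the saline libraries, so that the auxiliary subunit was highest relative to its pore in Sting-/- DOX hearts (exact permutation p = 0.1 in each comparison).

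Kcnh2 (gene ID 16511) was at 9.55, 9.59 and 9.21 FPKM in the Sting-/- DOX libraries, 24.9, 22.5 and 25.4 FPKM in the WT DOX libraries and 30.8, 27.3 and 28.1 FPKM in the saline libraries. Sting-/- DOX libraries were lowest and the WT DOX libraries just below the saline libraries, without overlap. Kcnh2 changed by -1.27 (SE 0.059, limma adjusted p = 1e-09) in Sting-/- DOX against WT DOX and -0.24 (SE 0.059, limma adjusted p = 0.00385) in WT DOX against saline, and in WT DOX against saline by -0.48 under median-ratio scaling and -0.41 under quantile normalization. Kcnh6 (gene ID 192775), of the same ether-a-go-go related family, was at 6.81, 8.14 and 9.23 FPKM in the Sting-/- DOX libraries, 3.27, 3.84 and 3.78 FPKM in the WT DOX libraries and 6.62, 6.17 and 6.98 FPKM in the saline libraries. It was lowest in WT DOX libraries, and Sting-/- DOX libraries overlapped the saline libraries. The change was 0.96 (SE 0.095, limma adjusted p = 1.22e-06) in Sting-/- DOX against WT DOX and -0.71 (SE 0.095, limma adjusted p = 3.47e-05) in WT DOX against saline.

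Kcne3 and Kcne4 are auxiliary subunits that alter Kcnq1 gating, Kcne4 as an inhibitor in expression systems. Kcne4 (gene ID 57814) was at 8.26, 7.58 and 5.56 FPKM in the Sting-/- DOX libraries, 3.55, 4.93 and 4.11 FPKM in the WT DOX libraries and 1.11, 1.16 and 0.97 FPKM in the saline libraries. The 3 groups were separate, with Sting-/- DOX highest. Kcne4 changed by 0.64 (SE 0.128, limma adjusted p = 0.000552) in Sting-/- DOX against WT DOX and 1.31 (SE 0.128, limma adjusted p = 2.37e-06) in WT DOX against saline, and in Sting-/- DOX against WT DOX by 0.34 under median-ratio scaling and 0.36 under quantile normalization. Kcne3 (gene ID 57442) was at 3.85, 4.1 and 3.54 FPKM in the Sting-/- DOX libraries, 1.79, 3.12 and 3.39 FPKM in the WT DOX libraries and 0.61, 0.57 and 0.14 FPKM in the saline libraries. All doxorubicin libraries were above the saline libraries, and the Sting-/- DOX libraries were just above those of WT DOX. Its change was 0.39 (SE 0.171, limma adjusted p = 0.0535) in Sting-/- DOX against WT DOX and 1.38 (SE 0.171, limma adjusted p = 1.91e-05) in WT DOX against saline. The comparison of the doxorubicin groups passed with only these groups in the fit (limma adjusted p = 0.0385), without saline replicate 3 (limma adjusted p = 0.0313), without WT DOX replicate 2 (limma adjusted p = 0.0454) or without WT DOX replicate 3 (limma adjusted p = 0.0239).

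The strong inward rectifiers Kcnj2 and Kcnj12 hold the resting potential of ventricular cardiomyocytes. Kcnj2 (gene ID 16518) was at 3.35, 2.32 and 3.01 FPKM in the Sting-/- DOX libraries, 10.6, 12.2 and 10.7 FPKM in the WT DOX libraries and 12.4, 9.65 and 10.7 FPKM in the saline libraries. WT DOX and saline libraries overlapped, and all Sting-/- DOX libraries were far below. The fold change was -1.65 (SE 0.108, limma adjusted p = 2.42e-08) in Sting-/- DOX against WT DOX and 0.03 (SE 0.108, limma adjusted p = 0.813) in WT DOX against saline. Kcnj12 (gene ID 16515) was at 0.97, 1.15 and 0.98 FPKM in the Sting-/- DOX libraries, 6.86, 6.82 and 6.68 FPKM in the WT DOX libraries and 10.8, 9.51 and 10.02 FPKM in the saline libraries. The groups were separate, with the Sting-/- DOX libraries near 1 FPKM. Kcnj12 changed by -1.94 (SE 0.068, limma adjusted p = 7.08e-11) in Sting-/- DOX against WT DOX and -0.51 (SE 0.068, limma adjusted p = 3.16e-05) in WT DOX against saline. The Kcnj2/Kcnj12 ratio was 3.45, 2.02 and 3.07 in the Sting-/- DOX libraries, 1.55, 1.78 and 1.6 in the WT DOX libraries and 1.14, 1.01 and 1.06 in the saline libraries (exact permutation p = 0.1 in each comparison), so Kcnj2 was the higher of the pair in each library. The log2 difference of this ratio between Sting-/- DOX and WT DOX was 0.761, and 0.291 with a pseudocount of 1 on both members.

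Kcnj3 and Kcnj5 together form the channel that acetylcholine opens through G proteins, best known in atria and the sinoatrial node. Kcnj3 (gene ID 16519) was at 1.55, 1.88 and 1.75 FPKM in the Sting-/- DOX libraries, 16.01, 15.98 and 16.1 FPKM in the WT DOX libraries and 26.8, 27.3 and 26.9 FPKM in the saline libraries. Kcnj5 (gene ID 16521) had 1.59, 1.33 and 1.24 FPKM in the Sting-/- DOX libraries, 11.6, 12.2 and 11.9 FPKM in the WT DOX libraries and 20.2, 20.1 and 19.5 FPKM in the saline libraries. Both genes were highest in saline libraries and lowest in Sting-/- DOX libraries, without overlap. The change of Kcnj3, the largest fall among the 32 described members in Sting-/- DOX against WT DOX on the log2(FPKM + 1) scale, was -2.65 (SE 0.055, limma adjusted p = 8.28e-13) in Sting-/- DOX against WT DOX and -0.72 (SE 0.055, limma adjusted p = 2.91e-07) in WT DOX against saline. For Kcnj5 the change was -2.44 (SE 0.063, limma adjusted p = 5.06e-12) in Sting-/- DOX against WT DOX and -0.70 (SE 0.063, limma adjusted p = 1.24e-06) in WT DOX against saline. The Kcnj5/Kcnj3 ratio was 1.03, 0.707 and 0.709 in the Sting-/- DOX libraries, 0.723, 0.766 and 0.742 in the WT DOX libraries and 0.756, 0.735 and 0.726 in the saline libraries. The groups overlapped (exact permutation p = 1.0 for Sting-/- DOX against WT DOX and 0.8 for WT DOX against saline), and the log2 difference between Sting-/- DOX and WT DOX was 0.11, and -0.07 without Sting-/- DOX replicate 1. The 7 atrial markers in the files summed to 3749 to 3871 FPKM in Sting-/- DOX, 2667 to 3003 FPKM in WT DOX and 188.1 to 221.3 FPKM in saline libraries, opposite to both genes, and 6 of them were tested. These markers include genes that ventricular cardiomyocytes also turn on under stress, and their part in the result was not tested.

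Channels closed by ATP couple the membrane to metabolism. Kcnj11 is their pore in ventricular cardiomyocytes and Kcnj8 their pore in vascular muscle and pericytes, each with a sulfonylurea receptor encoded by Abcc9 or Abcc8. Kcnj11 (gene ID 16514) was at 6.77, 6.1 and 7.06 FPKM in the Sting-/- DOX libraries, 47.5, 40.7 and 44.4 FPKM in the WT DOX libraries and 62.6, 59.02 and 61.1 FPKM in the saline libraries. The groups were separate, with Sting-/- DOX libraries lowest by a wide margin. It changed by -2.56 (SE 0.063, limma adjusted p = 3.5e-12) in Sting-/- DOX against WT DOX and -0.46 (SE 0.063, limma adjusted p = 4.89e-05) in WT DOX against saline, the fall in WT DOX being -0.71 with median-ratio scaling. Kcnj8 (gene ID 16523) was at 13.1, 12.1 and 11.2 FPKM in the Sting-/- DOX libraries, 13.4, 14.3 and 12.2 FPKM in the WT DOX libraries and 18.4, 17.4 and 18.6 FPKM in the saline libraries. The doxorubicin groups overlapped and both lay below the saline libraries. Kcnj8 changed by -0.12 (SE 0.069, limma adjusted p = 0.115) in Sting-/- DOX against WT DOX and -0.43 (SE 0.069, limma adjusted p = 0.000163) in WT DOX against saline, and the fall from saline was -0.67 with median-ratio scaling. Between the doxorubicin groups Kcnj8 passed as lower with median-ratio scaling (-0.44), with quantile normalization (-0.37), without WT DOX replicate 3 (-0.18) or without Sting-/- DOX replicate 1 (-0.17).

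The Kcnj11/Kcnj8 ratio was 0.518, 0.505 and 0.629 in the Sting-/- DOX libraries, 3.55, 2.84 and 3.65 in the WT DOX libraries and 3.4, 3.39 and 3.28 in the saline libraries. Kcnj8 was thus the higher pore subunit in each Sting-/- DOX library and Kcnj11 in each WT library (exact permutation p = 0.1 for Sting-/- DOX against WT DOX). In WT DOX against saline the log2 difference of this ratio was -0.01 (exact permutation p = 1.0), and 0.10 without WT DOX replicate 2. The 6 pericyte markers summed to 214.6 to 225.7 FPKM in Sting-/- DOX, 119.4 to 140.2 FPKM in WT DOX and 207.9 to 220.6 FPKM in saline libraries, with none at 0. The 7 smooth muscle markers summed to 857.2 to 907.6 FPKM in Sting-/- DOX, 202.6 to 221.1 FPKM in WT DOX and 205.5 to 239.1 FPKM in saline libraries, while Kcnj8 overlapped between the doxorubicin groups. The part of both lists in the level of Kcnj8 was not tested. Abcc9 was at 9.04, 9.44 and 8.79 FPKM in the Sting-/- DOX libraries, 28.8, 28.8 and 28.4 FPKM in the WT DOX libraries and 61.6, 62.4 and 64.1 FPKM in the saline libraries. It fell in both steps, with log2 fold changes of -1.56 (SE 0.042, limma adjusted p = 7.34e-12) in Sting-/- DOX against WT DOX and -1.10 (SE 0.042, limma adjusted p = 5.44e-10) in WT DOX against saline. Abcc8 averaged 1.63 ± 0.215 FPKM in Sting-/- DOX, 8.22 ± 0.537 FPKM in WT DOX and 9.39 ± 0.462 FPKM in saline hearts (SD, n = 3 each), with a log2 fold change of -1.81 (SE 0.076, limma adjusted p = 3.64e-10) in Sting-/- DOX against WT DOX. The Kcnj11/Abcc9 ratio was highest in WT DOX hearts, at 0.733 ± 0.08 in Sting-/- DOX, 1.54 ± 0.12 in WT DOX and 0.972 ± 0.038 in saline hearts, and the Kcnj8/Abcc9 ratio was highest in Sting-/- DOX hearts, at 1.33 ± 0.097, 0.464 ± 0.035 and 0.29 ± 0.0099 in the same order (SD, n = 3 each).

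**Figure D4:**
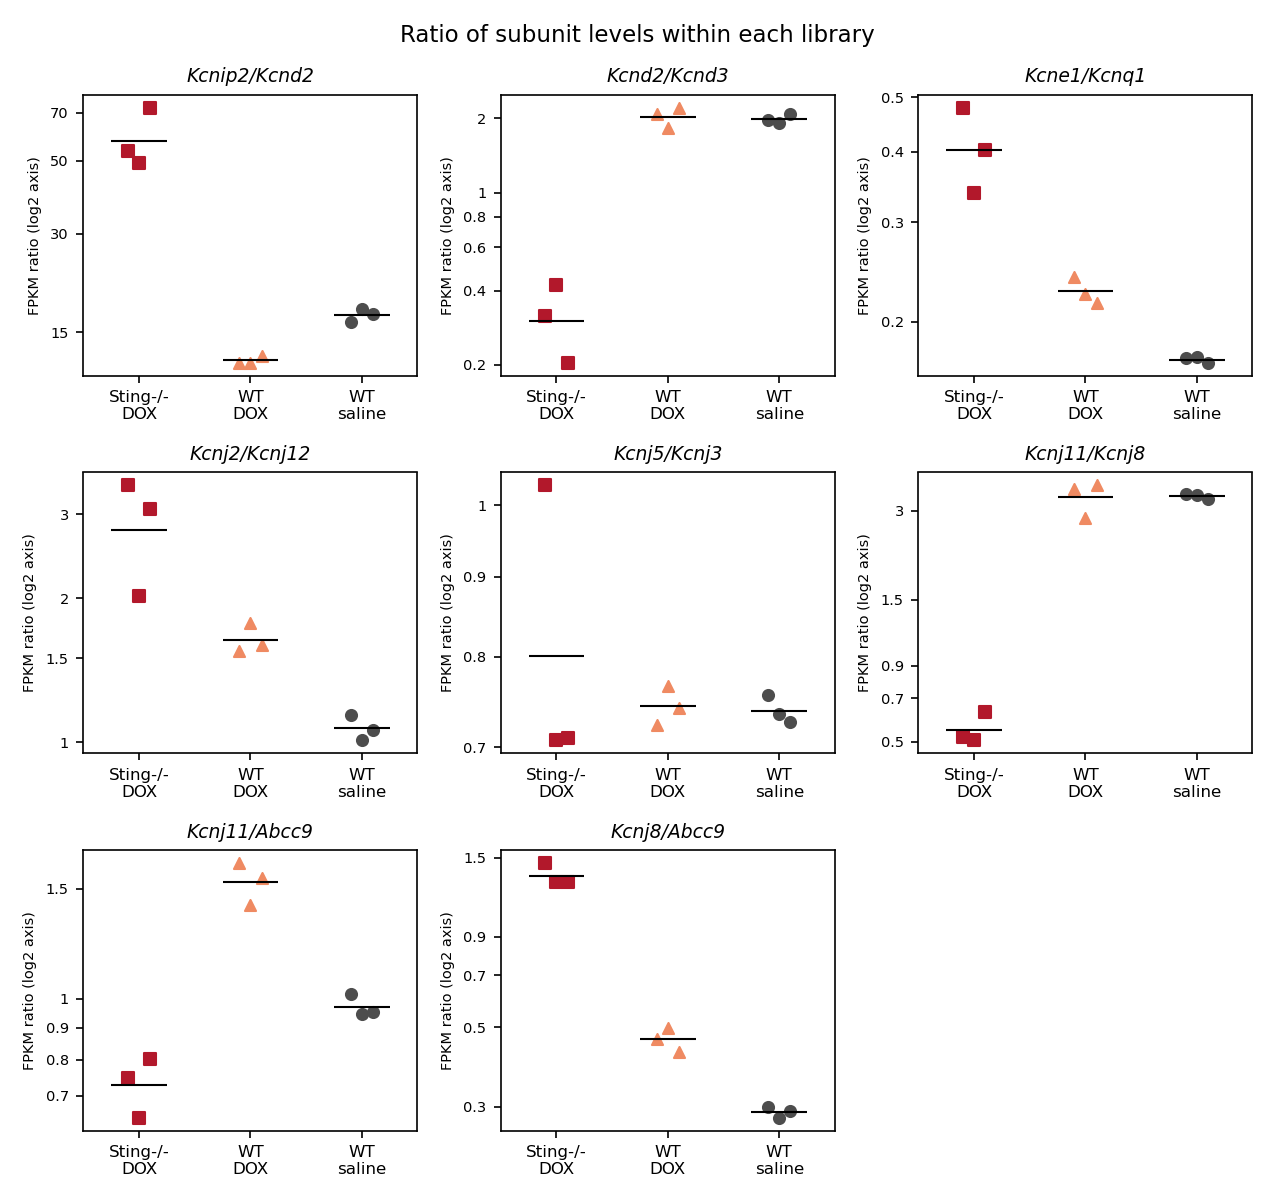
Ratio of the FPKM of paired subunits within each library on log2 axes, for Sting-/- DOX, WT DOX and WT saline hearts; points are libraries and lines are means of the log2 ratios. The Kcnj11/Kcnj8 ratio is 0.505 to 0.629 in Sting-/- DOX against 2.84 to 3.65 in WT DOX libraries, and the Kcnd2/Kcnd3 ratio 0.204 to 0.421 against 1.83 to 2.21.

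Kcnj15 encodes an inward rectifier known from kidney and had the largest rise among the 32 described members in Sting-/- DOX hearts on the log2(FPKM + 1) scale. Its promoter (RefSeq, GRCm38.p6 chr16:95257308-95257607, plus strand) is shown for that reason. Capitals mark CCACCC and TATAAA, the letters of the TATA box, on either strand and without overlap.
Kcnj15: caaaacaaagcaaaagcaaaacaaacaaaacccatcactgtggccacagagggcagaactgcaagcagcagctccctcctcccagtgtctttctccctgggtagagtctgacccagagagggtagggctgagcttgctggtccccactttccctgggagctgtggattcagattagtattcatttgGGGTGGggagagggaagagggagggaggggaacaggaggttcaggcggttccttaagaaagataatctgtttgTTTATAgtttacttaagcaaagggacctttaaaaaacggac
TATAAA, on either strand, occurs in 13.6% of all RefSeq promoters and, among the 22 members with an entry, in Kcnj15 alone. There it reads TTTATA, so the match is on the opposite strand, and it lies within the 50 bases after the gene start. The match describes letters and is not shown to be a working TATA box. Kcnj15 (gene ID 16516) was at 20.6, 18.6 and 18.9 FPKM in the Sting-/- DOX libraries, 1.1, 1.08 and 0.97 FPKM in the WT DOX libraries and 0.39, 0.41 and 0.63 FPKM in the saline libraries. Saline libraries were all under 1 FPKM, WT DOX libraries near 1 FPKM and Sting-/- DOX libraries far above. The fold change was 3.31 (SE 0.082, limma adjusted p = 3.51e-12) in Sting-/- DOX against WT DOX and 0.48 (SE 0.082, limma adjusted p = 0.000277) in WT DOX against saline. Mean FPKM in Sting-/- DOX was 18.4-fold that of WT DOX and 40.6-fold that of saline. The smaller rise in WT DOX was 1.018 with a pseudocount of 0.1 and did not pass with quantile normalization (0.14, limma adjusted p = 0.157).

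K2P genes encode leak channels. Kcnk3 (gene ID 16527), an acid-sensitive leak channel of cardiomyocytes and pulmonary artery muscle, was at 10.8, 11.7 and 12.4 FPKM in the Sting-/- DOX libraries, 69.7, 61.6 and 69.3 FPKM in the WT DOX libraries and 88.2, 84.9 and 88.5 FPKM in the saline libraries. The groups were separate, and the Sting-/- DOX libraries were lowest. Kcnk3 changed by -2.42 (SE 0.059, limma adjusted p = 2.93e-12) in Sting-/- DOX against WT DOX and -0.38 (SE 0.059, limma adjusted p = 0.000119) in WT DOX against saline, the fall in WT DOX being -0.63 with median-ratio scaling. Kcnk2 (gene ID 16526), a stretch-sensitive leak channel, was at 1.6, 1.77 and 2.07 FPKM in the Sting-/- DOX libraries, 1.63, 1.48 and 1.26 FPKM in the WT DOX libraries and 1.01, 1.55 and 1.03 FPKM in the saline libraries. WT DOX libraries overlapped both other groups, and Sting-/- DOX libraries lay above the saline libraries. The change was 0.20 (SE 0.114, limma adjusted p = 0.129) in Sting-/- DOX against WT DOX and 0.17 (SE 0.114, limma adjusted p = 0.213) in WT DOX against saline. It passed without saline replicate 2 in WT DOX against saline (0.28, limma adjusted p = 0.0437) and with sample weights in Sting-/- DOX against WT DOX (0.25, limma adjusted p = 0.0475).

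The other 2 K2P members rose. Kcnk6, known from macrophages and vessels, averaged 5.2 ± 0.129 FPKM in Sting-/- DOX, 2.84 ± 0.275 FPKM in WT DOX and 1.56 ± 0.28 FPKM in saline hearts (SD, n = 3 each). Its groups did not overlap. The change was 0.70 (SE 0.091, limma adjusted p = 1.65e-05) in Sting-/- DOX against WT DOX and 0.59 (SE 0.091, limma adjusted p = 0.000122) in WT DOX against saline. With quantile normalization these were 0.41 and 0.29, and with median-ratio scaling the first was also 0.41. Kcnk13 (gene ID 217826), known from microglia, was at 1.92, 1.89 and 1.64 FPKM in the Sting-/- DOX libraries, 1.13, 1.32 and 1.12 FPKM in the WT DOX libraries and 0.38, 0.34 and 0.26 FPKM in the saline libraries. Saline libraries were lowest and Sting-/- DOX libraries highest, without overlap. Kcnk13 changed by 0.36 (SE 0.09, limma adjusted p = 0.0026) in Sting-/- DOX against WT DOX and 0.72 (SE 0.09, limma adjusted p = 1.99e-05) in WT DOX against saline. The rise in WT DOX was 1.60 with a pseudocount of 0.1 and 0.41 with quantile normalization, and the difference between the doxorubicin groups did not pass with median-ratio scaling (0.15) or quantile normalization (0.04).

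Among channels opened by calcium or sodium, Kcnn1 and Kcnn2 fell in both steps and Kcnn4 rose. Kcnn2 (gene ID 140492), a small-conductance calcium-activated channel of atrial and ventricular muscle, was at 1.3, 1.39 and 0.74 FPKM in the Sting-/- DOX libraries, 3.99, 4.39 and 4.28 FPKM in the WT DOX libraries and 8.48, 7.07 and 8.14 FPKM in the saline libraries. The groups were separate, with saline highest. Kcnn2 changed by -1.30 (SE 0.114, limma adjusted p = 3.87e-07) in Sting-/- DOX against WT DOX and -0.77 (SE 0.114, limma adjusted p = 8.35e-05) in WT DOX against saline. Kcnn1, of the same family, averaged 1.84 ± 0.323 FPKM in Sting-/- DOX, 3.97 ± 0.614 FPKM in WT DOX and 6.38 ± 0.397 FPKM in saline hearts (SD, n = 3 each) and changed by -0.80 (SE 0.103, limma adjusted p = 1.35e-05) in Sting-/- DOX against WT DOX and -0.58 (SE 0.103, limma adjusted p = 0.000374) in WT DOX against saline. Kcnn4 (gene ID 16534), the intermediate-conductance channel of macrophages, lymphocytes and endothelium, was at 8.23, 6.67 and 5.89 FPKM in the Sting-/- DOX libraries, 2.94, 4.12 and 3.06 FPKM in the WT DOX libraries and 0.28, 0.36 and 0.15 FPKM in the saline libraries. Saline libraries were all under 0.4 FPKM, and Sting-/- DOX libraries were highest. The change was 0.86 (SE 0.128, limma adjusted p = 4.85e-05) in Sting-/- DOX against WT DOX and 1.78 (SE 0.128, limma adjusted p = 1.51e-07) in WT DOX against saline, the rise over saline being 3.29 with a pseudocount of 0.1 and the difference between the doxorubicin groups 0.56 with median-ratio scaling.

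Markers of macrophages, lymphocytes and endothelium, the cells named above for Kcnn4, did not all move alike, and other cell types were not set beside it. The 10 macrophage and monocyte markers summed to 2018 to 2087 FPKM in Sting-/- DOX, 1114 to 1248 FPKM in WT DOX and 334 to 381.7 FPKM in saline libraries, with none at 0. All 10 were higher in WT DOX than in saline, and 5 were higher and 4 lower in Sting-/- DOX than in WT DOX. The 7 markers of T and natural killer cells summed to 6.49 to 7.88 FPKM in Sting-/- DOX, 7.88 to 17.5 FPKM in WT DOX and 3.41 to 4.16 FPKM in saline libraries. The endothelial markers, with sums given above, were lower in sum in WT DOX than in saline libraries. Of the 12, only 4 were called lower and 1 higher in that comparison (median log2 fold change -0.006). All 12 were higher in Sting-/- DOX than in WT DOX (median 2.16). The part of these markers in the levels of Kcnn4, Kcnk6 and Kcnk13 was not tested. Kcnt2, a sodium-activated channel, averaged 1.99 ± 0.248 FPKM in Sting-/- DOX, 0.85 ± 0.101 FPKM in WT DOX and 0.83 ± 0.157 FPKM in saline hearts (SD, n = 3 each), with overlapping WT groups and higher Sting-/- DOX libraries. Kcnt2 changed by 0.69 (SE 0.101, limma adjusted p = 3.95e-05) in Sting-/- DOX against WT DOX and 0.01 (SE 0.101, limma adjusted p = 0.901) in WT DOX against saline. The first was 0.40 with quantile normalization and 1.14 with a pseudocount of 0.1, and the second -0.34 with quantile normalization (limma adjusted p = 0.0087).

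Set against saline directly, the Sting-/- DOX hearts had their largest rises in Kcnj15 (3.79), Kcnn4 (2.64), Kcne4 (1.95), Kcne3 (1.76) and Kcna5 (1.69) on the log2 scale. With a pseudocount of 0.1 Kcnn4 was at 4.31 and Kcne3 at 3.02, and Kcne3 was at 1.15 with quantile normalization. The largest falls on the log2(FPKM + 1) scale were in Kcnj3 (-3.36), Kcnj5 (-3.13), Kcnj11 (-3.02), Kcnk3 (-2.81) and Kcnj12 (-2.45). Kcnq1 had -2.03 (SE 0.048, limma adjusted p = 1.3e-12), and Kcng2, Kcnip2, Kcnd2 and Kcnn2 also had values beyond -2. With a pseudocount of 0.1 Kcnd2 was at -3.69 and Kcna7 at -3.50, between Kcnj5 (-3.76) and Kcnj11 (-3.18), and in mean FPKM Kcnd2 was 15.5-fold and Kcna7 15.7-fold lower than in saline, against 15.6-fold for Kcnj3. Kcnh6, Kcnip4 and Kcnk2 were called higher by 0.25, 0.33 and 0.36, and none of these calls held under median-ratio scaling, where Kcnh6 was -0.28 and Kcnip4 -0.03, or quantile normalization, where Kcnh6, Kcnip4 and Kcnk2 were -0.27, -0.31 and -0.28. Kcnt2 (0.71) was not called with quantile normalization (0.06). Kcnh6 was also lost without saline replicate 1 (0.25, limma adjusted p = 0.0532) or 2 (0.21, limma adjusted p = 0.0908) and without Sting-/- DOX replicate 2 (0.24, limma adjusted p = 0.0647) or 3 (0.16, limma adjusted p = 0.129), and Kcnip4 without saline replicate 1 (0.27) or 3 (0.26) or any of the 3 Sting-/- DOX replicates (0.28 to 0.35).

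Genes that serve the channels from outside the Kcn symbols were counted in 3 further lists. Of 10 tested accessory proteins, 6 were lower and 1 higher in Sting-/- DOX than in WT DOX, and 2 lower and 3 higher in WT DOX than in saline. Over all genes tested, 29.7% were lower and 54.1% higher in the first comparison, and 21.5% and 45.3% in the second. Cav3, the muscle caveolin that holds channels in membrane pits, was at 12.5, 16.3 and 17.1 FPKM in the Sting-/- DOX libraries, 106, 105 and 102 FPKM in the WT DOX libraries and 66.1, 69.3 and 62.5 FPKM in the saline libraries, highest in WT DOX and lowest in Sting-/- DOX libraries. Dlg4, a scaffold protein, was at 9.64, 10.1 and 10.01 FPKM in the Sting-/- DOX libraries, 2.71, 2.83 and 2.25 FPKM in the WT DOX libraries and 1.01, 1.34 and 1.09 FPKM in the saline libraries, in the opposite direction to most of the list. Their changes in Sting-/- DOX against WT DOX were -2.70 (SE 0.09, limma adjusted p = 4.63e-11) for Cav3 and 1.61 (SE 0.084, limma adjusted p = 2.99e-09) for Dlg4.

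Subunits of the sodium-potassium pump, which rebuilds the potassium gradient, were split. Of 9 tested, 5 were lower and 4 higher in Sting-/- DOX than in WT DOX, and 3 lower and 6 higher in WT DOX against saline. The regulator Fxyd6 averaged 160.5 ± 10.9 FPKM in Sting-/- DOX, 22.6 ± 1.0 FPKM in WT DOX and 19.2 ± 0.818 FPKM in saline hearts (SD, n = 3 each). Its change in Sting-/- DOX against WT DOX was 2.77 (SE 0.056, limma adjusted p = 6.27e-13). Of 4 tested chloride cotransporters that move potassium, 3 were higher and 1 lower in Sting-/- DOX than in WT DOX, with Slc12a2 at 0.85 and Slc12a7 at -1.15, and 1 rose and 1 fell in WT DOX against saline. Beside both lists, 54.1% of all genes tested were higher and 29.7% lower in Sting-/- DOX than in WT DOX. In WT DOX against saline these shares were 45.3% and 21.5%.

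The 56 members under 1 FPKM comprised 19 Kv pore, 11 auxiliary, 9 K2P, 7 Kir, 6 silent and 4 calcium- or sodium-activated genes. In the fit without a filter 20 of them were higher and 6 lower in Sting-/- DOX than in WT DOX, and 6 rose and 3 fell in WT DOX against saline. Of all genes in that fit 47.8% were higher and 23.6% lower in the first comparison, and 35.4% and 16.5% in the second. Those shares cover genes at every level. In the fit of genes averaging 1 FPKM or more, 54.1% were higher and 29.7% lower in the first comparison. In the second comparison these were 45.3% and 21.5%. The share among genes under 1 FPKM alone was not taken, so the 56 members cannot be ranked against genes of a like level. The 3 highest were Kcnmb1, the smooth muscle auxiliary subunit of the large-conductance calcium-activated channel, Kcnip3, a relative of Kcnip2, and Kcnd1, a pore subunit related to Kcnd2. Kcnmb1 averaged 1.41 ± 0.173 FPKM in Sting-/- DOX, 0.77 ± 0.146 FPKM in WT DOX and 0.80 ± 0.206 FPKM in saline hearts, just under the limit at 0.993 FPKM over all libraries, and Kcnk13, just above it, averaged 1.11 FPKM. Kcnip3 averaged 1.3 ± 0.339 FPKM in Sting-/- DOX, 0.61 ± 0.154 FPKM in WT DOX and 0.92 ± 0.212 FPKM in saline hearts. Kcnd1 (gene ID 16506) was at 2.13, 1.9 and 2.32 FPKM in the Sting-/- DOX libraries, 0.37, 0.49 and 0.63 FPKM in the WT DOX libraries and 0.14, 0.30 and 0.09 FPKM in the saline libraries, highest in each Sting-/- DOX library, where Kcnd2 was lowest. Its change in the fit without a filter was 1.06 (SE 0.09, limma adjusted p = 2.23e-06) in Sting-/- DOX against WT DOX and 0.35 (SE 0.09, limma adjusted p = 0.00842) in WT DOX against saline.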

How the data were processed

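Total RNA from hearts was sequenced after library preparation with an MGI kit, per the labels' protocols. The authors deposited 1 file per library with gene IDs and FPKM values to 2 decimals. The submitters' processing notes name HISAT2 2.0.4, Bowtie2 2.2.5, RSEM 1.2.12 and the build GRCm39, with no role given. FPKM is relative to the library, so abundant genes can shift all others. Symbols came from a RefSeq gene table of GRCm38.p6, which held 16825 of the IDs and lacked 48. Groups came from the sample titles.

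A single limma 3.58.1 fit with a trended prior took log2(FPKM + 1) of the 9 libraries (two-sided, Benjamini-Hochberg over the 12485 genes averaging 1 FPKM or more, threshold 0.05) in R 4.3.3, after a check on simulated data. Subunit ratios were compared by exact two-sided permutation with scipy 1.17.1, 8 ratios in 3 comparisons, where 0.1 is the smallest p. Depth was estimated from steps of low values in 1705 genes, where 45.7% to 57.2% of values lay within 0.1 of a whole read, so counts were not recovered. The members and lists were chosen with earlier results of these data known. Genes given library by library are a panel of cardiac subunits and the 5 largest rises and falls of each comparison, with others named as such. A few genes enter the counts, sums and medians, and their own values are not reported here. Alternatives covered pseudocount, filter, scaling, samples, variance prior, weights, a replicate block and leaving out each library.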

Additional observations from a re-analysis of the deposited data

How the results depend on the processing

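With a mean of at least 5 FPKM, 2 members were higher and 11 lower in WT DOX against saline, 3 and 10 in Sting-/- DOX against WT DOX, and 3 and 12 in Sting-/- DOX against saline, where fewer genes were tested. Of all genes at that filter, 48.6% were higher and 23.9% lower in WT DOX against saline, 52.3% and 34.3% in Sting-/- DOX against WT DOX, and 60.8% and 30.0% in Sting-/- DOX against saline. Without a filter 30 were higher in Sting-/- DOX against WT DOX and 34 against saline. With quantile normalization 8 were higher in Sting-/- DOX against saline, and the cause was not tested. Leaving out each library gave 10 to 11 higher and 15 to 17 lower in Sting-/- DOX against WT DOX, 11 to 13 and 19 to 19 in Sting-/- DOX against saline, and 9 to 11 and 18 to 18 in WT DOX against saline. The other counts stayed within 1.5 times.

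Of 554 gene values per comparison under the alternatives, 538 kept direction and call in Sting-/- DOX against WT DOX, 538 in Sting-/- DOX against saline and 540 in WT DOX against saline. Reversed values were, with median-ratio scaling, Kcng2 at -0.205 in WT DOX against saline, Kcnh6 at -0.275 and Kcnip4 at -0.025 in Sting-/- DOX against saline, and Kcnab2 at -0.251 in Sting-/- DOX against WT DOX. With quantile normalization they were Kcnt2 at -0.343 in WT DOX against saline, Kcnab2 at -0.268 in Sting-/- DOX against WT DOX, and Kcnh6 at -0.27, Kcnip4 at -0.309 and Kcnk2 at -0.276 in Sting-/- DOX against saline. Of 168 ratio values 3 reversed: Kcnj5/Kcnj3 without Sting-/- DOX replicate 1, with a range over left-out libraries of -0.07 to 0.198 against WT DOX and -0.061 to 0.207 against saline, and Kcnj11/Kcnj8 without WT DOX replicate 2, with -0.08 to 0.102 in WT DOX against saline. In Sting-/- DOX against saline, a pseudocount of 1 brought the log2 difference of Kcnip2/Kcnd2 to 0.291 in place of 1.77, of Kcnd2/Kcnd3 to -1.60 in place of -2.73 and of Kcnj2/Kcnj12 to 0.836 in place of 1.37.

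Replicate numbers were not treated as pairs, and deviations of same-numbered libraries correlated at -0.032 to 0.104 over 9 pairs. With 3 libraries per group such weak correlations cannot exclude a pairing or a shared batch. With the replicate block the counts stayed at 10 higher and 16 lower in Sting-/- DOX against WT DOX, 13 and 19 in Sting-/- DOX against saline, and 10 and 18 in WT DOX against saline. Depth limits the 56 members under 1 FPKM most, since 1 fragment on a 2 kb transcript is worth up to 0.0581 FPKM in the Sting-/- DOX libraries.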

Other observations

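Members under 1 FPKM held further differences between the groups, named here after their values were seen and fitted without the filter on low values. Kcnma1, the pore of the large-conductance calcium-activated channel, was at 1.57, 1.24 and 1.27 FPKM in the Sting-/- DOX libraries, 0.01, 0.07 and 0.03 FPKM in the WT DOX libraries and 0.02, 0 and 0.01 FPKM in the saline libraries. It was near 0 in every WT library and above 1 FPKM in each Sting-/- DOX library. Its change in Sting-/- DOX against WT DOX was 1.18 (SE 0.058, limma adjusted p = 3.39e-08). Its auxiliary subunit Kcnmb1 changed by 0.45 (SE 0.098, limma adjusted p = 0.00214). The 7 smooth muscle markers summed to 857.2 to 907.6 FPKM in Sting-/- DOX, 202.6 to 221.1 FPKM in WT DOX and 205.5 to 239.1 FPKM in saline libraries, and their part in these levels was not tested.

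Kcna4, a slow transient outward pore subunit, was at 0.04, 0.08 and 0.03 FPKM in the Sting-/- DOX libraries, 0.74, 1.11 and 0.84 FPKM in the WT DOX libraries and 0.62, 0.64 and 0.64 FPKM in the saline libraries, lowest in each Sting-/- DOX library. Kcnab1, a beta subunit of Kv channels, was at 1.85, 1.47 and 1.54 FPKM in the Sting-/- DOX libraries, 0.18, 0.28 and 0.24 FPKM in the WT DOX libraries and 0.41, 0.46 and 0.35 FPKM in the saline libraries, highest in each Sting-/- DOX library. Their changes in Sting-/- DOX against WT DOX were -0.85 (SE 0.068, limma adjusted p = 1.54e-06) for Kcna4 and 1.08 (SE 0.067, limma adjusted p = 1.97e-07) for Kcnab1. The silent subunit Kcns1 was at 0.78, 0.89 and 0.96 FPKM in the Sting-/- DOX libraries, 0.06, 0.03 and 0.06 FPKM in the WT DOX libraries and 0.07, 0.07 and 0.03 FPKM in the saline libraries, and changed by 0.84 (SE 0.047, limma adjusted p = 9.25e-08). Kcna3, the channel of T cells and macrophages, was listed at 0 in all 3 Sting-/- DOX libraries. It was at 0.50, 0.16 and 0.71 FPKM in the WT DOX libraries and 0.05, 0.14 and 0 FPKM in the saline libraries. Kcna3 changed by -0.52 (SE 0.118, limma adjusted p = 0.0025) in Sting-/- DOX against WT DOX. The change was 0.44 (SE 0.118, limma adjusted p = 0.0105) in WT DOX against saline and -0.09 (SE 0.118, limma adjusted p = 0.528) in Sting-/- DOX against saline. Markers of T and natural killer cells summed to 6.49 to 7.88 FPKM in Sting-/- DOX, 7.88 to 17.5 FPKM in WT DOX and 3.41 to 4.16 FPKM in saline libraries. The part of these markers in the level of Kcna3 was not tested.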
